A study of Mus musculus with 6 samples.

Results

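Periostin (Postn) and 7 other genes for secreted matrix proteins (Tnc, Sparc, Fn1, Tgfbi, Fbln1, Ccn1 and Ccn2) were followed in 6 RNA-seq libraries of newborn mouse epidermal cells. They are 8 of the 17025 genes in the deposited table, found there by symbol. The members were chosen by measured values: Postn was selected on its difference between the labelled groups in these same libraries, and the others were set beside it with results of that contrast in view. Values of that contrast are therefore a description of the 8 genes, given without a p-value.

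Cells were sorted by FACS for integrin α6, a receptor that holds basal keratinocytes to the basement membrane, at postnatal day 0 (P0). Mice of both groups carried K14Cre, a recombinase driven by the keratin 14 promoter, which is active in basal keratinocytes. The 3 libraries labelled control came from K14Cre,Ash2lF/+ mice, with one floxed copy of Ash2l, and the 3 labelled cKO (conditional knockout) from K14Cre,Ash2lF/F mice, with both copies floxed. ASH2L belongs to the core of the enzyme complexes that methylate lysine 4 of histone H3, and the series asks what it does in epidermal differentiation and hair follicle formation. Whether the libraries stem from different animals is not stated in the labels, and p-values then reflect only how far these libraries spread, which may be technical.

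Matricellular proteins are secreted into the matrix but act less as scaffold than as adaptors: they bind integrins, collagens and growth factors and change how a cell holds on to its surroundings. In skin they are made mostly by dermal fibroblasts, at wound edges and beneath developing hair follicles, and some also by keratinocytes. Periostin and its paralogue TGFBI are built of fasciclin domains. Tenascin-C (Tnc) and fibronectin (Fn1) bind periostin, and fibronectin also forms fibrils of its own. SPARC binds collagen during its processing, fibulin-1 (Fbln1) sits in basement membranes and elastic fibres, and CCN1 and CCN2 are cysteine-rich proteins whose genes are known targets of YAP with TEAD factors. Periostin is known to be induced by TGF-β and by interleukin-13.

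Expression is given in FPKM, the fragments of a gene scaled to its length and to the fragment total of the library. Values in a group are listed in the order of replicates 1, 2 and 3, and differences are cKO minus control on the log2(FPKM + 1) scale with their standard error (SE, n = 3 per group). Libraries held 31578875 to 36027550 fragments. The targeted gene went against the labels: Ash2l stood at 12.4, 18.1 and 15.9 FPKM under the control label and at 30.9, 29.5 and 22.9 FPKM under the cKO label (difference 0.81, SE 0.19; limma adjusted p = 0.0240). Leaving out control 1, control 3, cKO 1 or cKO 2 lost that call, with adjusted p reaching 0.0829. The deposited values are per gene and not per exon, so loss of the floxed part alone cannot be read from them. Why Ash2l went against the labels was not tested, and neither was an exchange of labels. Every direction that follows rests on labels that the targeted gene went against, and libraries are named by label only.

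Markers of the sorted cell type were abundant. The 8 basal keratinocyte markers summed to 4933 to 8609 FPKM in the libraries labelled control and to 8050 to 10465 FPKM in those labelled cKO; of these, Krt15 was called higher and Itgb4 lower. Itga6, the gene of the sorted integrin, was named after its values were seen. It stood at 162, 78.8 and 72.0 FPKM and at 53.6, 53.0 and 19.7 FPKM, without overlap, and was not called (difference -1.32, SE 0.44). The 8 spinous markers summed to 5023 to 6987 and to 36327 to 70087 FPKM, and 5 of them were higher. Melanocyte markers went the other way, all 8 lower, with sums of 2834 to 3229 and of 170 to 366 FPKM. The sums of endothelial markers (8.68 to 11.0 and 3.22 to 9.64 FPKM), pericyte and smooth muscle markers (22.3 to 29.8 and 5.24 to 14.96 FPKM) and immune markers (2.16 to 3.84 and 2.84 to 5.08 FPKM) were small. Schwann cell markers summed to 120 to 151 and 71.7 to 95.4 FPKM. Called among these were Esam, Acta2, Cspg4 and Foxd3, all lower. Each library averages over its cells, so fewer cells of a type and less RNA per cell cannot be told apart. The library labelled cKO 3 stood apart from cKO 1 and 2: it was the lowest of its group for 60.1% of the 11603 genes tested and the lowest of all 6 for 43.9%.

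Postn had the third highest difference of all genes tested. Under the control label it measured 25.0, 15.1 and 24.7 FPKM, and under the cKO label 184, 163 and 301 FPKM. The 3 labelled cKO were all above the 3 labelled control, and cKO 3 was 1.73 times the mean of cKO 1 and 2. Group means were 21.6 ± 5.64 and 216 ± 74.4 FPKM (SD, n = 3), a ratio of 9.99 and a difference of 3.24 (SE 0.27). In fragments, 1699 to 2762 stood against 18846 to 36909, so counting error was small beside the spread between libraries. The mean level moved from the 69.8th to the 98.5th percentile of the genes tested. The gene (identifier 50706 in the deposited table) has 2 start sites in RefSeq (GRCm38.p6). The 250 bases before the downstream one, at chr3:54360857-54361106 on the plus strand, are shown for the member with the largest difference, with capitals marking TATAAA, whose first base lies 26 bases before the start:
Postn: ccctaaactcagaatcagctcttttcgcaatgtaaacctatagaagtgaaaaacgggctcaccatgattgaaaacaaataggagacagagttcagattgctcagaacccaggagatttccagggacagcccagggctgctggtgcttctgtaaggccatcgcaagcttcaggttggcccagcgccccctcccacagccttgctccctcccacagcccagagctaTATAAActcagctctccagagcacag
TATAAA on the gene strand between 20 and 35 bases before the start is held by 1.84% of the 32851 promoters of that table. Of the 9 windows of the 6 members with an entry, the downstream one of Postn and that of Ccn1 hold it there. The upstream window of Postn holds no TATAAA. This motif was chosen after the sequences were seen.

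**Figure D1:**
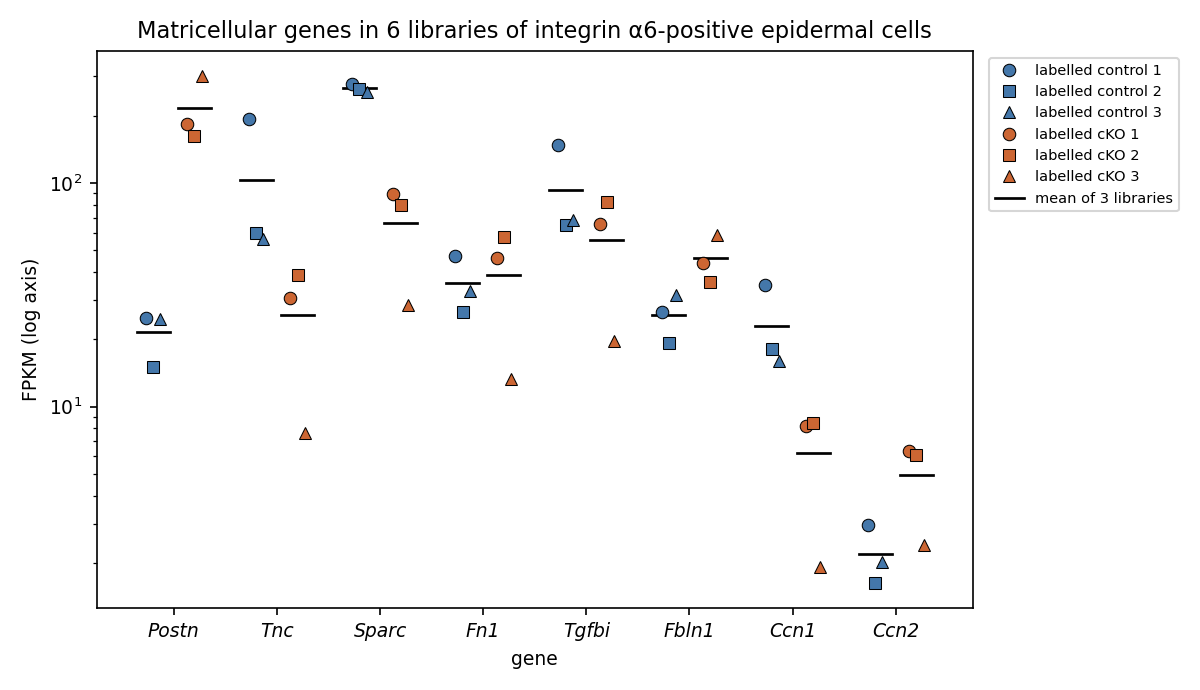
FPKM (log axis) of the 8 genes in each library, blue for those labelled control and orange for those labelled cKO, with the mean of 3 as a line. Postn is at 15.1 to 25.0 in the blue points and at 163 to 301 in the orange ones, while Sparc and Ccn1 are lower in every orange point and Fn1 overlaps.

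Postn is a fibroblast gene in the dermis, so it was set against 12 fibroblast markers in the same libraries. Their summed level was 133, 210 and 411 FPKM under the control label and 515, 472 and 166 FPKM under the cKO label. The groups overlapped: cKO 3, which had the most Postn, had less of the markers than control 2 or 3. Postn per unit of the marker sum was 0.188, 0.0718 and 0.0601 against 0.358, 0.344 and 1.81, so all 3 libraries labelled cKO were above all 3 labelled control. Against single markers, Postn per Col3a1 overlapped, at 1.81, 0.216 and 0.148 against 1.04, 1.02 and 4.64. Postn per Dcn, Lum or Pdgfra did not overlap, and per Col1a1 the groups were narrowly apart (control 1 at 3.16, cKO 2 at 3.59). On the log2 scale the ratio to the marker sum differed by 2.70, and by 1.91 to 3.21 with each library left out. With the markers' mean as a term in the fit the Postn difference was 3.36 (SE 0.25), and without it 3.24 (SE 0.27). The part of fibroblasts in the Postn difference was not tested.

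The markers themselves did not pass the test. Of 11 tested, none was called in either direction by limma or by limma-voom. At an unadjusted p under 0.05, limma had 1 higher and 0 lower. Their median difference was 0.36, against -0.17 for all genes. Without control 3 or without cKO 3, 1 was called higher. Col1a1, a chain of type I collagen, stood at 7.91, 9.36 and 30.2 FPKM and at 46.4, 45.3 and 20.6 FPKM (difference 1.35, SE 0.50). Col3a1 stood at 13.8, 69.8 and 167 FPKM and at 177, 160 and 64.8 FPKM. In both collagen genes control 3 exceeded cKO 3, the reverse of Postn. The proteoglycan gene Dcn stood at 48.7, 21.6 and 33.9 FPKM and at 91.5, 95.0 and 19.9995 FPKM. Lum stood at 3.43, 11.1 and 13.0 FPKM and at 16.8, 8.76 and 4.86 FPKM. Pdgfra, a receptor that marks dermal fibroblasts, stood at 8.60, 19.3 and 24.6 FPKM and at 19.7, 16.5 and 3.76 FPKM. All 11 tested markers had their lowest value of the cKO label in cKO 3, where Postn had its highest. Library cKO 3 was also the lowest of its label for 60.1% of all genes tested. The same held for all 8 melanocyte markers and for none of the 8 spinous markers. Twist2 was at 0 in control 1, which allows up to 0.0712 FPKM, and Mfap5, under the filter, was at 0 in 3 libraries. The 8 dermal condensate markers, of the cells beneath hair follicles, summed to 23.1, 67.7 and 131 FPKM and to 174, 163 and 56.3 FPKM, with Sox18 called higher; their part in the Postn difference was not tested.

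**Figure D2:**
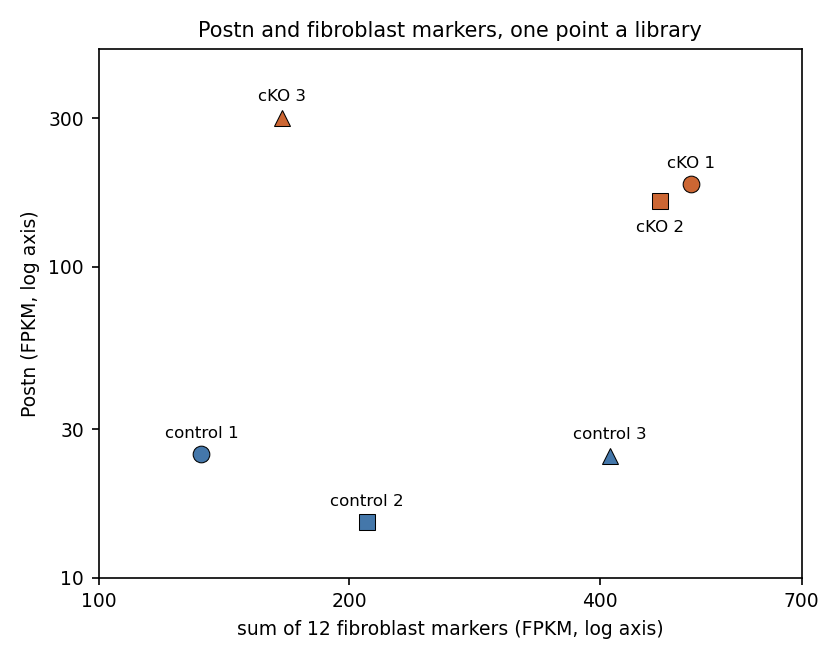
Postn (FPKM, log axis) against the summed FPKM of 12 fibroblast markers (log axis), a point for each library. Control 3 and cKO 1 and 2 lie close on the horizontal axis (411 to 515) but far apart on the vertical one, and cKO 3 joins a Postn level of 301 to a marker sum of 166.

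The 8 spinous markers, 5 of them called higher, had a median difference of 1.55, and the 8 basal markers, 1 called higher and 1 lower, had a median of -0.43. Krt1 and Krt10, keratins of spinous cells, together made up 0.885, 1.28 and 1.20% of all FPKM under the control label and 7.97, 8.38 and 16.2% under the cKO label. Both this share and Postn were highest in cKO 3. Against the basal keratin Krt15, a gene chosen for this after its values were seen, Postn stood at 0.0331, 0.0358 and 0.0431 and at 0.0805, 0.0718 and 0.0817. Against Krt5 it stood at 0.00639, 0.00671 and 0.0107 and at 0.0557, 0.0451 and 0.0617. Krt15 and Krt5 are 2 of the 8 basal markers and do not stand for the list. The part of keratinocyte markers in the Postn difference was not tested. The genes with the profile nearest to Postn over the 6 libraries were Gpt, an alanine aminotransferase gene (root mean square distance of centred log2 profiles 0.29), Penk, which encodes proenkephalin (0.35), the sphingosine phosphate receptor gene S1pr5 (0.35), the membrane protease gene Prss8 (0.37) and the ceramidase gene Acer1 (0.37). Gpt stood at 6.20, 6.70 and 7.23 FPKM and at 50.4, 50.2 and 121.8 FPKM. Acer1 stood at 3.85, 4.16 and 2.49 FPKM and at 31.0, 28.4 and 56.2 FPKM. In both, as in Postn, cKO 3 was the highest library, which their choice by likeness to Postn favours. The distance of the tested fibroblast markers ran from 1.26 for Col1a1 to 2.33 for Dpt. Those markers were a fixed list, while the 5 genes were picked as the nearest of all genes tested, so the distances are not comparable.

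The paralogue Tgfbi (21810) did not follow Postn. It measured 147, 64.7 and 68.4 FPKM under the control label and 65.6, 82.2 and 19.7 FPKM under the cKO label. The groups overlapped, with control 1 highest and cKO 3 lowest. Means were 93.5 ± 46.7 and 55.8 ± 32.4 FPKM (SD, n = 3; difference -0.85, SE 0.53), and the difference was -0.24 without cKO 3. Postn per Tgfbi was 0.169, 0.233 and 0.361 under the control label and 2.81, 1.98 and 15.3 under the cKO label. Tgfbi was thus the more abundant paralogue in all 3 libraries labelled control and Postn in all 3 labelled cKO.

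Of the binding partners of periostin, Tnc was lower in the libraries labelled cKO and Fn1 was not separated. Tnc (21923) stood at 194, 59.9 and 56.0 FPKM and at 30.5, 38.9 and 7.65 FPKM. The groups did not overlap, but control 1 was far above the other two of its label and cKO 3 far below its own. Means were 103 ± 78.5 and 25.7 ± 16.2 FPKM (SD, n = 3; difference -1.99, SE 0.65). Fn1 (14268) stood at 47.2, 26.5 and 33.1 FPKM and at 46.1, 57.1 and 13.3 FPKM, with cKO 3 below every other library. Its difference was -0.07 (SE 0.50) with all libraries, 0.55 without cKO 3 and 0.15 without control 1 or scaled by the median of ratios, so it has no stable sign. Within a library Tnc exceeded Fn1 under the control label, by 4.11, 2.26 and 1.69 times. It was below Fn1 under the cKO label, at 0.662, 0.682 and 0.575 of its level. The 2 partners were low together in cKO 3, and their ratio there lay close to that of cKO 1 and 2.

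Sparc was the most abundant member under the control label and was lower under the cKO label. Sparc (20692) stood at 278, 263 and 255 FPKM and at 89.6, 80.1 and 28.4 FPKM. The groups did not overlap and the 3 labelled control lay close together. Means were 265 ± 11.4 and 66.0 ± 32.9 FPKM (SD, n = 3), a control to cKO ratio of 4.02 and a difference of -2.15 (SE 0.38; -1.64 without cKO 3). Melanocytes are a known source of SPARC, and the melanocyte markers fell by more than Sparc, with a median difference of -3.09 for 8 of 8; their part in the Sparc difference was not tested. Relative to Fn1, Sparc stood at 5.89, 9.92 and 7.72 and at 1.94, 1.40 and 2.13, so the groups were apart here as well. Postn per Sparc was 0.0900, 0.0574 and 0.0969 and then 2.06, 2.03 and 10.6.

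Fbln1 shared the direction of Postn, as did Ccn2 (difference 0.83), whose groups overlapped. Fbln1 (14114) stood at 26.5, 19.2 and 31.7 FPKM and at 44.0, 36.0 and 58.6 FPKM. The groups did not overlap, though control 3 and cKO 2 were close. Means were 25.8 ± 6.26 and 46.2 ± 11.5 FPKM (SD, n = 3), a ratio of 1.79 and a difference of 0.82 (SE 0.24). With each library left out the difference ran from 0.63, without cKO 3, to 0.98. Like Postn and unlike the other 6 members it was highest of its label in cKO 3. The ratio of Postn to Fbln1 was narrow within each label, at 0.943, 0.785 and 0.780 and at 4.18, 4.52 and 5.13.

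The CCN pair parted. Ccn1 (16007) stood at 34.96, 18.1 and 15.98 FPKM and at 8.23, 8.42 and 1.93 FPKM. The groups did not overlap, and cKO 3 was again the lowest. Means were 23.0 ± 10.4 and 6.19 ± 3.69 FPKM (SD, n = 3), a control to cKO ratio of 3.72 and a difference of -1.84 (SE 0.49). With each library left out the difference ran from -2.13 to -1.28, the latter without cKO 3. Ccn2 (14219) was low in all libraries, at 2.95, 1.64 and 2.03 FPKM and at 6.36, 6.06 and 2.40 FPKM. The groups overlapped because cKO 3 lay below control 1. Means were 2.21 ± 0.675 and 4.94 ± 2.20 FPKM (SD, n = 3; difference 0.83, SE 0.34), and the difference was 1.19 without cKO 3. Ccn1 was 11.8, 11.1 and 7.87 times Ccn2 under the control label and 1.29, 1.39 and 0.803 times under the cKO label. The 250 bases before the Ccn1 start (GRCm38.p6, chr3:145649986-145650235, minus strand, written on the gene strand) are shown because Ccn1 is the more abundant of the 2 known TEAD targets in the set. Capitals mark CATTCC 103 bases before the start and TATAAA 25 bases before it:
Ccn1: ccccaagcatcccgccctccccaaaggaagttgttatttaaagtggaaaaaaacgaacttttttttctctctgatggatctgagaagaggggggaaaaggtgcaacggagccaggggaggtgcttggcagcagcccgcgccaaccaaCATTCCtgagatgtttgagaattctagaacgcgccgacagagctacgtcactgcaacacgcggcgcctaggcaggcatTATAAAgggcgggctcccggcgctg
The motif searched for TEAD factors was GGAATG, on both strands. CATTCC is that motif read from the opposite strand, and it shares no base with the other one marked. It was in the window of Ccn1 alone among the 6 members with an entry (9 windows), and in 12.6% of the 32851 promoters. Ccn2 and Fn1 had no entry, so neither motif was searched for in them. TATAAA on either strand was in 12.4%.

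**Figure D3:**
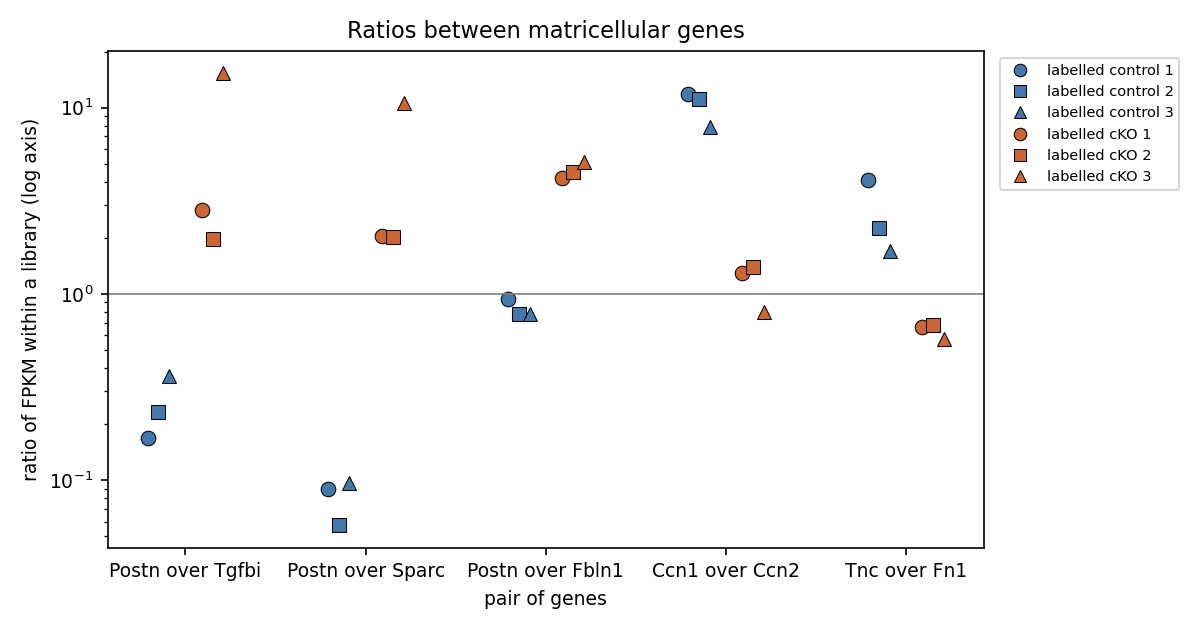
Ratio of the FPKM of 2 members within each library (log axis), blue for those labelled control and orange for those labelled cKO. For each of the 5 pairs shown the 2 colours do not overlap, and the orange points lie close together for Postn over Fbln1 (4.18 to 5.13) and for Tnc over Fn1 (0.575 to 0.682).

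Over the 8 members, all of which passed the filter, 2 were called higher (Postn, Fbln1) and 2 lower (Sparc, Ccn1). Of all genes tested 19.5% were called, 5.87% higher and 13.6% lower; since the members were chosen with this contrast known, the count is a description and nothing is read from it. Fbln1 left the count without control 1, 2 or 3, cKO 1 or cKO 3, and Ccn1 without control 1, 2 or 3. The libraries of the labelled groups did not overlap for 5 members, 2 above and 3 below (Tnc, Sparc, Ccn1), against 42.9% of all genes tested, 12% above and 30.9% below. Library cKO 3 was the lowest of its label for 6 members and the highest for 2 (60.1% and 28.8% of all genes), and the lowest of all 6 libraries for 5. Library control 1 was the highest of its label for 7 members, all but Fbln1, against 37.3% of all genes. In order of mean level the libraries labelled control had Sparc, Tnc, Tgfbi, Fn1, Fbln1, Ccn1, Postn and Ccn2. The ranges of neighbours were apart only between Sparc and Tnc, Tgfbi and Fn1, and Postn and Ccn2. Under the cKO label the order was Postn, Sparc, Tgfbi, Fbln1, Fn1, Tnc, Ccn1 and Ccn2, and only Postn was apart from its neighbour. The median difference of all genes was -0.17 and moved to 0.03 when libraries were scaled by the median of ratios, where 1044 genes were higher and 1001 lower in place of 681 and 1576. Under that scaling Postn stood at 3.46, Fbln1 at 1.04, Sparc at -1.93 and Ccn1 at -1.65.

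**Figure D4:**
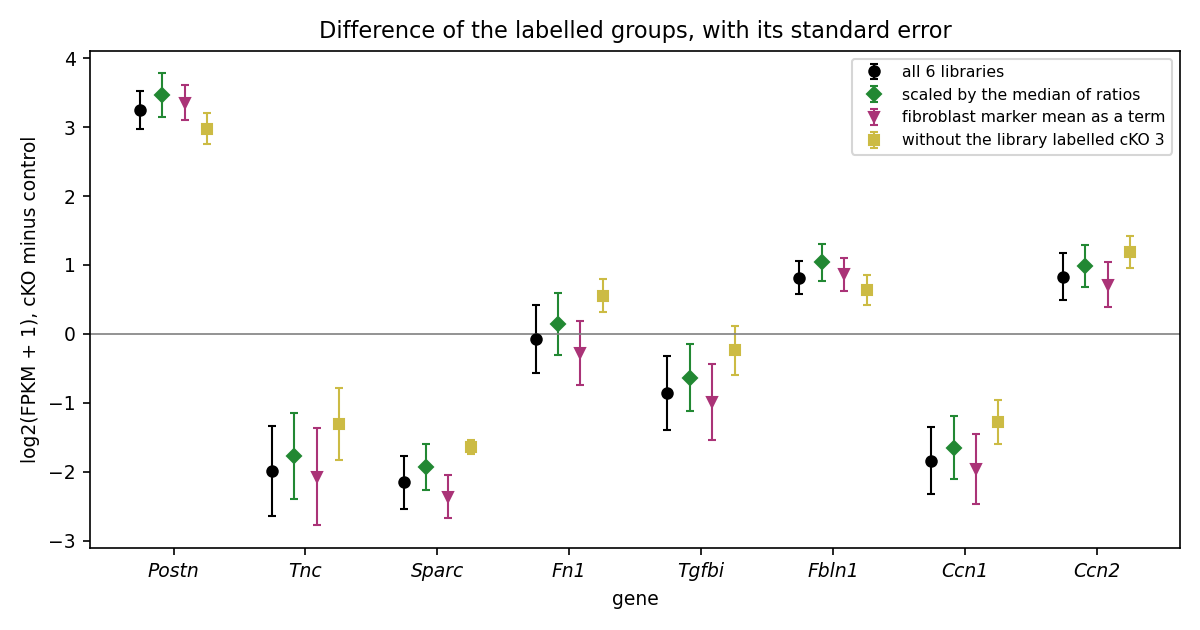
Difference of the labelled groups on the log2(FPKM + 1) scale, cKO minus control, with its standard error, for 8 genes under 4 treatments of the data. Postn stays between 2.98 and 3.46 and Sparc between -2.36 and -1.64, whereas Fn1 crosses 0.

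Among 26 further genes of the same families (thrombospondins, SPOCK and SMOC proteins, other CCN, tenascin and fibulin genes), 15 were tested. At an unadjusted p under 0.05, limma had 1 higher and 3 lower. After adjustment limma-voom called none higher and 1 lower. By limma none was called higher and 1 lower, with a median of 0.05. That is 6.67% called, against 19.5% of all genes tested; the difference of the shares was not tested. The lower one was Ecm1, a secreted glycoprotein that binds matrix at the dermal-epidermal junction, at 18.1, 14.0 and 10.6 FPKM and then 4.83, 5.28 and 3.32 FPKM (difference -1.47, SE 0.24; limma adjusted p = 0.00726). The other 14 did not pass.

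Of 20 tested receptors for these proteins, 2 were called higher and 5 lower, with a median of -0.28, where 5.87% of all genes tested were higher and 13.6% lower. Itgb5, the integrin β5 chain that pairs with αv and binds periostin, stood at 28.6, 21.6 and 43.7 FPKM and at 72.5, 70.1 and 112.0 FPKM (difference 1.43, SE 0.28; limma adjusted p = 0.0126). The groups did not overlap and cKO 3 was the highest, as in Postn. Lrp1, an endocytic receptor for matrix proteins, stood at 11.5, 9.86 and 16.6 FPKM and at 26.0, 25.4 and 25.3 FPKM (0.99, SE 0.20; limma adjusted p = 0.0135). Itgav, the αv chain that pairs with β5, was lower and stood at 11.4, 11.8 and 12.2 FPKM and at 7.23, 7.78 and 5.34 FPKM (-0.73, SE 0.18; limma adjusted p = 0.0306). Scaled by the median of ratios it lost its call (-0.53, limma adjusted p = 0.0535). Itgb1, the β1 chain shared by most matrix integrins, stood at 199, 156 and 143 FPKM and at 73.2, 76.2 and 28.9 FPKM (-1.57, SE 0.35; limma adjusted p = 0.0201). The syndecan gene Sdc3 was lower (-1.70, SE 0.37; limma adjusted p = 0.0183), as was Itga9, whose integrin binds tenascin-C (-1.57, SE 0.34; limma adjusted p = 0.0188). The fifth was Itga4, named after its values were seen (-1.16, SE 0.29; limma adjusted p = 0.0319). Itgb3, the other β chain known for periostin, was under the filter at 0.712, 0.294 and 0.941 FPKM and 0.634, 0.365 and 0.284 FPKM. The 2 higher calls held without each library in turn. The 5 lower calls fell to 1, 0 and 1 without control 1, 2 and 3, and to 3 without cKO 1 or 2.

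**Figure D5:**
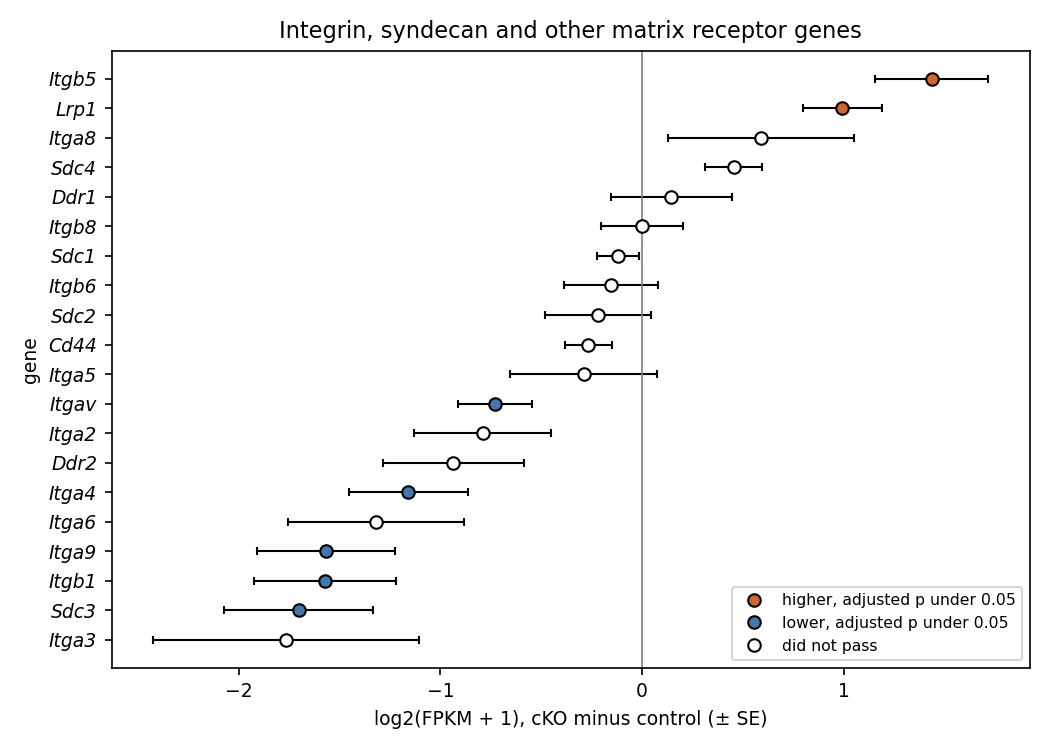
Difference on the log2(FPKM + 1) scale, cKO minus control, with its standard error (3 libraries a group), for the 20 receptor genes tested, coloured where the adjusted p was under 0.05. Itgb5 (1.43) and Lrp1 (0.99) lie at the top, and Sdc3, Itgb1, Itga9, Itga4 and Itgav are the coloured genes below 0.

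Periostin joins collagen to the enzymes that cross-link it. Of 21 tested collagen partners and matrix enzymes, limma-voom called 5 lower and none higher. At an unadjusted p under 0.05, limma had 1 higher and 7 lower. After adjustment 4 were lower and none higher by limma, with a median of 0.15. The share called, 19.0%, was close to the 19.5% of all genes tested. The list holds 3 of the fibroblast markers. Loxl3, a lysyl oxidase, stood at 12.4, 19.8 and 12.2 FPKM and at 1.94, 1.20 and 0.668 FPKM (difference -2.80, SE 0.28; limma adjusted p = 0.00156). Col12a1, a collagen that lies along fibrils, stood at 68.6, 41.1 and 34.8 FPKM and at 12.4, 15.0003 and 9.16 FPKM (-1.86, SE 0.28; limma adjusted p = 0.00484). Both were lower in every library labelled cKO than in any labelled control. The lysyl hydroxylase genes Plod3 (-1.36, SE 0.22; limma adjusted p = 0.00617) and Plod1 (-1.68, SE 0.33; limma adjusted p = 0.0131) fell too, Plod1 losing its call without control 3 (adjusted p = 0.0525). The count of lower genes was 6 without control 2.

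TGF-β and interleukin-13 signalling, the known inducers of Postn, had 19 genes tested and a median of -0.50. By limma 1 was called lower and none higher (5.26% of the list called, against 19.5% of all genes). At an unadjusted p under 0.05, limma had 1 higher and 5 lower. After adjustment limma-voom called none in either direction. The count of lower genes called by limma was 0 without any one of control 2, control 3, cKO 1 and cKO 2. Of the interleukin-13 genes, named after their values were seen, Stat6 was at 0.88 (SE 0.26), Il4ra at -0.58 (SE 0.22) and Il13ra1 at -0.50 (SE 0.17). None of these was called. The ligand genes did not pass: Tgfb1 was at -0.44 (SE 0.32), Tgfb2 at -0.54 (SE 0.33) and Tgfb3 at 0.89 (SE 0.41). Tgfb3 was called without control 1 (1.34, limma adjusted p = 0.0414). Without control 1, 2 genes of the list were called higher.

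Of 19 tested genes of YAP, TEAD and their targets, 1 was higher and 2 lower, with a median of -0.09. The share called, 15.8%, was near the 19.5% of all genes tested. Nuak2, a kinase gene induced by YAP, stood at 5.78, 8.02 and 8.88 FPKM and at 17.2, 15.2 and 16.5 FPKM (difference 1.03, SE 0.19; limma adjusted p = 0.01004). Tead4 stood at 8.78, 18.4 and 15.3 FPKM and at 3.21, 3.34 and 2.01 FPKM (-1.94, SE 0.29; limma adjusted p = 0.00506). Tead1 was lower (-0.95, SE 0.26; limma adjusted p = 0.0399) and lost its call when scaled by the median of ratios (adjusted p = 0.0555) and without any one of control 2, control 3 and the 3 libraries labelled cKO (adjusted p up to 0.132). The coactivator genes Yap1 (0.24, SE 0.16) and Wwtr1 (-0.56, SE 0.26) did not pass. Nuak2 was thus higher in every library labelled cKO than in any labelled control, and Ccn1, a member chosen with this contrast known, was lower. The groups overlapped for Ccn2, the other known target among the members, and for most of the 19 tested genes of the list. Over all genes tested, the groups did not overlap for 42.9%. Nuak2 and Ccn1 do not stand for the known YAP targets.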

How the data were processed

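The authors deposited 1 table of FPKM values for 17025 genes in 6 libraries, per the file headers. Reads were handled with HISAT2, HTSeq and fastp on GRCm39, per the submitters' processing notes, which carry no versions. The gene annotation and strand setting were not given in the sources used here. Without a known strand setting, reads of Tnc, Fn1 and Ccn2 cannot be told from those of genes on the opposite strand (8030451A03Rik, Apol7d and Gm15270 in GENCODE M21). Whole fragments were recovered from the FPKM steps for 17018 genes (tolerance 1e-09) and served for depth and the limma-voom alternative; the upper limit at 0 is 3 fragments and, like depth, covers counting error only.

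The test covered the 11603 genes that averaged 1 FPKM or more. They were compared on log2(FPKM + 1), a scale that understates changes of low genes, using limma 3.58.1 (R 4.3.3) with group alone as a term and a trend of variance on the mean. Called means a Benjamini-Hochberg adjusted p under 0.05 over all genes tested. limma was first run on simulated data that held no outlying library, so its error rate in these data was not tested. Alternatives covered pseudocount, filter, scaling (by the median of ratios over genes above 0 in every library, or by quantiles), weights, a replicate block, the fibroblast marker mean as a term, each library left out and the threshold.

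Members, lists and alternatives were chosen with earlier results of these data known. Named genes are Ash2l, the members, 5 fibroblast markers, from each list the 4 called genes with the smallest adjusted p in each direction, Itgav, Itgb1, Itgb3, Itgb5, Tgfb1, Tgfb2, Tgfb3, Yap1, Wwtr1, and the 5 genes nearest to Postn in profile. One gene that this rule takes is not reported here. Of the identifiers, 16932 matched RefSeq. Promoters come from RefSeq (GRCm38.p6), another build than that of the files, and no other coordinates are given. Chi-square per gene was 14.4 for the closest libraries (cKO 1 and 2), so no library repeats the counts of another. It was 50.0 for the next closest, control 2 and 3, and 244 and 239 for cKO 3 against cKO 1 and 2. Whether libraries share an animal cannot be told from it. Figures were drawn with matplotlib 3.10.9.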

Additional observations from a re-analysis of the deposited data

How the results depend on the processing

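The members were chosen with this contrast known, so their calls under other settings do not bear on stability and are given as a description. Over 18 alternatives of the fit the difference ran from 2.98 to 3.46 for Postn and from -2.45 to -1.64 for Sparc, and the sign of Fn1 turned in 5. Adjusted p crossed 0.05 for Tnc with the replicate block and with array weights, for Ccn2 with quantile scaling, array weights or without cKO 3, for Fbln1 in 10 of 18 and for Ccn1 in 4. Ccn2 has no value with the filter at 5 FPKM. The cause of these changes was not tested. With each library left out the differences ran from 2.98 to 3.42 for Postn, -2.41 to -1.31 for Tnc, -2.45 to -1.64 for Sparc, -0.46 to 0.55 for Fn1, -1.24 to -0.24 for Tgfbi, 0.63 to 0.98 for Fbln1, -2.13 to -1.28 for Ccn1 and 0.63 to 1.19 for Ccn2, and from 1.91 to 3.21 for the ratio of Postn to the fibroblast markers.

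Counts over all genes moved more. The 2257 calls (681 higher, 1576 lower) became 4254 (1423 and 2831) with array weights and 3885 (1023 and 2862) with the fibroblast mean as a term. They were 771 (265 and 506) at an adjusted p under 0.01, with 2407 lower at 0.1. Higher and lower calls were 1044 and 1001 under the median of ratios, and 1028 were higher under quantiles. With each library left out the totals were 1102 to 2163, 390 to 715 higher and 712 to 1448 lower; without control 2, control 3, cKO 1 and cKO 2 they were 1102, 1251, 1376 and 1318.

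In the lists, array weights gave 3 fibroblast markers higher, 2 matricellular relatives higher and 2 lower, 8 receptors lower, 4 collagen partners higher and 7 lower, 4 TGF-β genes higher and 4 lower, and 5 YAP genes higher. The fibroblast term gave 1 fibroblast marker higher and 2 lower, 4 relatives lower, 1 collagen partner higher and 7 lower, 1 TGF-β gene higher and 9 lower, and 2 YAP genes higher and 6 lower. Without a filter 3 receptors and 1 YAP gene were lower. The 1 lower TGF-β gene became 0 with either other filter, none, either scaling, no trend or limma-voom. Either scaling gave 1 TGF-β gene higher and 1 YAP gene lower, with 3 YAP genes higher under the median of ratios and 2 under quantiles. Leaving out each library gave 0 to 1 fibroblast markers higher and 0 lower, 0 to 1 relatives higher and 1 lower, 2 to 3 receptors higher and 0 to 4 lower, 0 to 1 collagen partners higher and 3 to 6 lower, 0 to 2 TGF-β genes higher and 0 to 1 lower, and 1 YAP gene higher and 1 to 2 lower.

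Deviations of same-numbered libraries correlated at -0.31, 0.08 and -0.26, and those of other-numbered libraries at -0.20 to 0.29. Libraries of the same number were thus not seen to be more alike, which does not exclude a pairing. A fit with the replicate block called 1325 genes (432 higher and 893 lower), with 0 TGF-β genes and 1 YAP gene lower; Ash2l, Itgav and Tead1 lost their calls there.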
